A study of Mus musculus with 16 samples.

Results

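The cells described here are those that the authors' deposited annotation names M2 macrophages, 1287 of the 20376 cells in 4 single-cell RNA libraries of mouse neuroblastoma grafts. They were taken by that name alone. There were 411 of them in the library of CD45+ sorted cells from KO mice (KO sorted), 627 in that of WT mice (WT sorted), 168 in the library of all tumor cells from KO mice (KO tumor) and 81 in that of WT mice (WT tumor). The mice were male C57BL/6, 8 weeks old, and all of them carried a subcutaneous graft of NB9464D, a mouse neuroblastoma cell line. KO mice are labelled CD200R-/- among the sample characteristics and CD200-/- in the growth protocol, and the labels name no Cre driver and no cell type for the loss. Tumors were taken on day 28 and digested with type IV collagenase at 1 mg/mL, and cells were captured with 10x Genomics 3' V3 chemistry. The labels list 16 samples, 4 for each of the 4 groups, but a cell carries only the name of its group, so each group was 1 library. No spread between animals could be measured, no test was made, and every interval below covers counting error only.

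Macrophages exposed to interleukin 4 or 13 take on what is called alternative or M2 activation, marked in the mouse by the arginine-degrading enzyme Arg1, the chitinase-like lectin Chil3 and the secreted protein Retnla. Tumor macrophages arise in large part from blood monocytes, which enter as Ly6c2- and Ccr2-expressing cells carrying Plac8 and Vcan, and gain complement C1q, Apoe and Mrc1 as they mature. Cells short of oxygen stabilize the factor HIF-1, which turns on glucose transporters, glycolytic enzymes and Vegfa by binding the core letters ACGTG or GCGTG near its targets. The receptor CD200R restrains myeloid cells on meeting its ligand CD200 and is the product of Cd200r1.

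Expression was counted in unique molecular identifiers (UMIs), tags that mark each captured RNA molecule once. The M2-named cells held 3712364 UMIs in the KO sorted, 8386788 in the WT sorted, 942474 in the KO tumor and 1110299 in the WT tumor library, with a median of 7136, 10838, 3261 and 13493 UMIs per cell. Mitochondrial RNA was 3.11% to 4.61% of UMIs in the median cell of each library. Ribosomal protein RNA was 15.3% of all UMIs in KO sorted, 16.1% in WT sorted, 21.8% in KO tumor and 34.5% in WT tumor cells. Of the 20376 cells, 307 have a barcode that also occurs in another library, and 16 of these are M2-named. CPM stands for the UMIs assigned to a gene among every 1000000 UMIs of the cells in question.

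A part of the M2-named cells of the tumor libraries had no leukocyte RNA. Of 12 genes that nearly all leukocytes carry (Ptprc, Tyrobp, Fcer1g, Laptm5, Ctss, Coro1a, Rac2, Cd52, Spi1, Cybb, Lcp1 and Cyba), 1 KO sorted and 1 WT sorted cell had less than 0.1% of UMIs. Below the same limit were 20 of 168 KO tumor cells, 11.9% (7.43 to 17.8), and 56 of 81 WT tumor cells, 69.1% (57.9 to 78.9). Parentheses hold exact 95% intervals (Clopper-Pearson for shares, Poisson for levels, conditional binomial for ratios). For the median of a list they hold the 95% interval from binomial order statistics over its measured genes. These deep cells held 43.6% of the UMIs of the KO tumor and 85.1% of those of the WT tumor set. The limit falls in a gap: 67 of the 78 cells below it had 0 UMIs of the 12 genes and the highest had 0.0712%, and the lowest of the 1209 above it had 0.103%. The limit was set after the values had been seen.

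**Figure D1:**
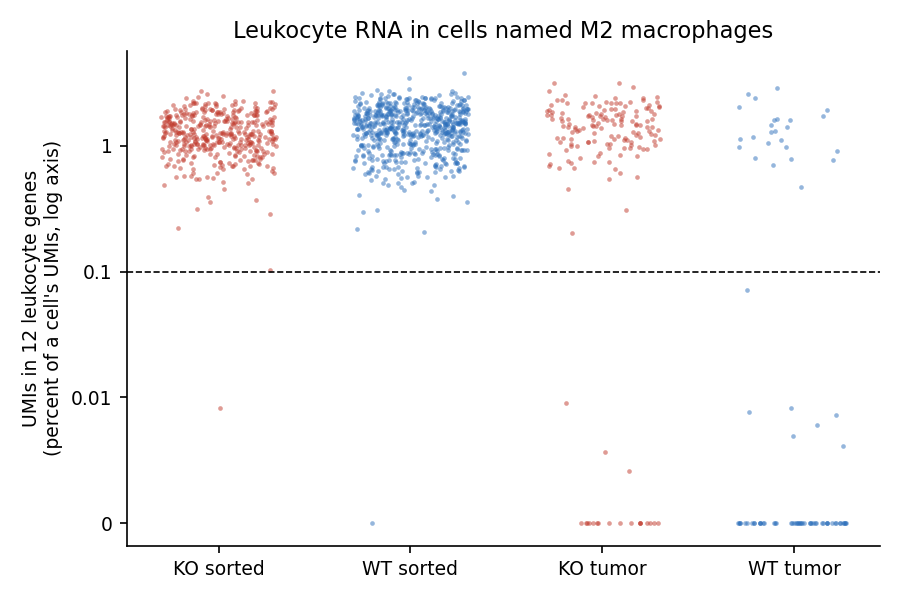
Each point is 1 of the 1287 M2-named cells, and its height is the percent of its UMIs in the 12 leukocyte genes (log axis, 0 drawn at the bottom), by library, with the limit of 0.1% dashed. The 2 sorted libraries have 1 cell each below the line, the KO tumor library has 20 and the WT tumor library has 56.

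The plot of leukocyte RNA by cell shows the low cells as a group of their own in both tumor libraries. In the cells below the limit, the 12 genes together were at 12.2 CPM in KO tumor and 7.40 CPM in WT tumor cells, and MHC class II genes at 19.5 and 6.35 CPM. Arg1, Chil3 and Cd200r1 were at or near 0 there, with 0, 0 and 0 CPM in KO tumor and 0, 0 and 0 CPM in WT tumor cells. The other 2 class markers were not absent. Thbs1 had 347 CPM in WT tumor cells below the limit. It had a UMI in 45 of all 81 WT tumor M2-named cells and in 10 of the 25 with leukocyte RNA. Plac8 had a UMI in 16 of those 81 and in 9 of those 25 cells. The leukocyte genes, Arg1 and Chil3 thus go against the name for these 76 tumor cells, and no other name is given to them. Results on the tumor libraries are accordingly given for the 148 KO and 25 WT tumor cells with leukocyte RNA, which held 531346 and 164939 UMIs, and the ratio over all M2-named tumor cells follows.

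The cells without leukocyte RNA carried the highest hypoxia levels of the tumor M2-named cells. The 31 hypoxia genes measured summed to 7173 CPM in the KO and 10099 CPM in the WT tumor cells without leukocyte RNA, against 2661 and 5475 CPM in those with it. A list of 15 fibroblast and graft genes stood at 1474 and 2158 CPM, against 177 and 146 CPM. Compared with cells named fibroblasts in the same library, they were higher in both genotypes in Ptgs2, the inducible cyclooxygenase, Areg, a growth factor, and Ero1l, an oxidase of the endoplasmic reticulum induced in hypoxia, genes picked after their values were seen. Ptgs2 had 406 CPM in KO and 880.1 CPM in WT cells without leukocyte RNA, against 4.77 CPM and 6.75 CPM in fibroblast-named cells. Areg had 277 CPM and 233 CPM, against 5.91 CPM and 1.95 CPM. Ero1l had 829 CPM and 1397 CPM, against 22.6 CPM and 62.6 CPM. The gene furthest above fibroblast-named cells, among those at 200 CPM or more, was another in each genotype: the cornified envelope gene Sprr1a, at 338 CPM in KO cells against 0.741 CPM, and Il1rl1, the interleukin 33 receptor, at 466 CPM in WT cells against 2.97 CPM.

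The names of cells rest on the same RNA, so markers of the class are given as a description. Arg1 (chromosome 10, 24915221 to 24927484, minus strand, mm10 coordinates) had 1294 CPM in KO and 1626 CPM in WT sorted cells, against 5.41 and 35.2 CPM in KO and WT neutrophils and 171 and 91.2 CPM in KO and WT cells named Myeloid_DC. Chil3 (chromosome 3, 106147554 to 106167564, minus strand) had 1491 CPM in KO and 224 CPM in WT sorted cells, against 10.8 and 27.9 CPM in neutrophils and 46.4 and 13.8 CPM in Myeloid_DC. Both genes were thus highest in the M2-named cells of each sorted library among these 3 classes.

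Thbs1, which encodes the secreted glycoprotein thrombospondin-1 (chromosome 2, 118111876 to 118127133, plus strand), had 720.3 CPM in KO and 1973 CPM in WT sorted cells. It was higher in neutrophils, with 1773 CPM in KO and 4079 CPM in WT, and low in Myeloid_DC, with 106 and 91.5 CPM. Plac8, a monocyte and lymphocyte gene (chromosome 5, 100553725 to 100572245, minus strand), had 1320.2 CPM in KO and 828 CPM in WT sorted cells, against 276 and 79.2 CPM in neutrophils and 350.3 and 133 CPM in Myeloid_DC. Of the 4 markers, Thbs1 is thus shared with neutrophils.

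**Figure D2:**
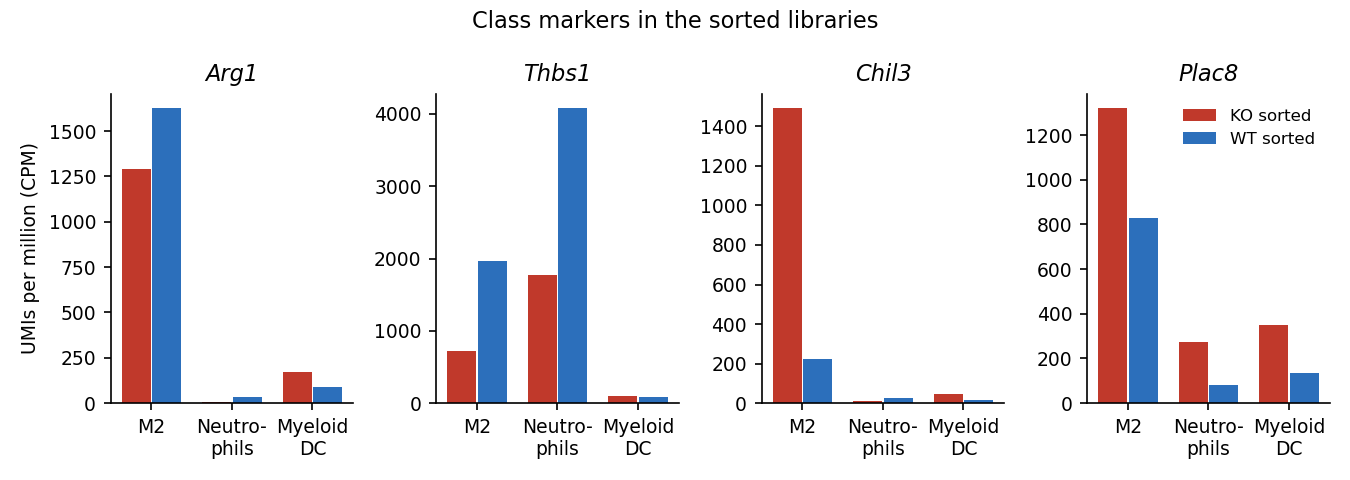
Bars give the level (CPM, axes from 0) of Arg1, Thbs1, Chil3 and Plac8 in cells named M2 macrophages, neutrophils and Myeloid_DC of the KO sorted and WT sorted libraries. Arg1, Chil3 and Plac8 are highest in M2-named cells in both libraries, and Thbs1 is highest in neutrophils.

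No marker was in every M2-named cell. With each cell thinned to 1000 UMIs, which leaves out 6 KO and 3 WT sorted cells, Arg1 was detected in 33.3% of KO and 34% of WT sorted cells, and without thinning in 48.7% and 45.9%. B cells, which should lack Arg1, had a UMI in 0.319% and 0.312% of cells at the same depth (unthinned medians of 2168 and 3118 UMIs). Chil3 was in 26.7% of KO and 15.7% of WT sorted M2-named cells after thinning, against 0.638% and 0.104% of B cells. Thbs1 was in 22.2% and 44.9%, against 0.426% and 0.416% of B cells. For Plac8 the shares were 44.7% and 40.2%, with 18.6% and 22.2% in B cells, which are no negative control for this gene.

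Cd200r1 (chromosome 16, 44765736 to 44794978, plus strand) had 0 UMIs in the 411 KO sorted and the 168 KO tumor M2-named cells. In WT cells it had 48.6 CPM (44.0 to 53.6) in the sorted and 48.5 CPM (20.9 to 95.6) in the tumor library, where only cells with leukocyte RNA were counted. The libraries follow their genotype labels, although a 3' tag does not show which part of the gene was removed. A UMI was found in 34% of WT sorted M2-named cells, in 6.09% after thinning to 1000 UMIs and in 0.309% of WT sorted B cells. Taking 3 UMIs as the floor for the KO library, the sorted log2 ratio KO over WT was at or below -6.28. Cd200, the ligand gene, was low, with 9.16 CPM in KO and 12.4 CPM in WT sorted cells.

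M2-named cells were 9.55% (8.69 to 10.5) of all KO sorted and 12% (11.1 to 12.9) of all WT sorted cells. Of the cells named M1 or M2 macrophages, neutrophils or Myeloid_DC alone, they were 40.1% (37.1 to 43.2) in KO and 29.5% (27.6 to 31.5) in WT, so the order of the genotypes turned with the denominator. In the tumor libraries they were 2.85% (2.44 to 3.31) of KO and 1.63% (1.30 to 2.03) of WT cells. Counting only those with leukocyte RNA, the tumor shares were 2.51% (2.13 to 2.94) in KO and 0.505% (0.327 to 0.744) in WT. Shares in a sorted library are set by the gate, and neither preparation gives numbers of cells per tumor.

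Against neutrophils and Myeloid_DC, the M2-named cells were told apart by macrophage genes and by a part of the monocyte genes. These comparisons used the sorted libraries, since the tumor libraries held at most 47 cells of either class. Ratios between classes are log2 M2-named over the other class, relative to the median gene, whose ratio by total UMIs was 0.66 in KO and 1.42 in WT against neutrophils and 0.01 in KO and -0.07 in WT against Myeloid_DC. Of all genes with at least 20 UMIs over both classes in each library, 820 of 8091 (10.1%) were at least 2-fold higher in both libraries than in neutrophils and 1380 (17.1%) at least 2-fold lower. Against Myeloid_DC the counts were 453 of 10087 (4.49%) higher and 412 (4.08%) lower.

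Of 20 macrophage maturation genes measured, 14 were at least 2-fold higher than in neutrophils in both libraries and 1, Cd63, was lower. The median log2 ratio was 2.95 in KO and 2.66 in WT, where the median over all genes tested was -0.12 and -0.13. C1qa, a chain of complement C1q, had 1265 CPM in KO and 1347 CPM in WT sorted cells, against 48.6 and 54.2 CPM in neutrophils. Apoe, a lipid carrier, had 1376 CPM in KO and 5256 CPM in WT sorted cells, against 75.7 and 327 CPM. Over Myeloid_DC 7 of the 20 were higher and 0 lower, Apoe by 3.70 and 2.55, and the macrophage membrane gene Ms4a7 by 3.87 and 2.21 on the log2 scale in KO and WT. The same list summed to 10772 CPM in KO and 15752 CPM in WT sorted M2-named cells and to 29484 and 39223 CPM in cells named M1 macrophages, so it was higher in the class named M1.

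Monocyte genes divided against neutrophils. Of 25 measured, 8 were higher by 2-fold or more in M2-named cells of both libraries, and 11 were lower by that much. The list holds class markers too: Chil3 and Plac8 among the higher and Thbs1 among the lower. Among the higher were Ccr2, the receptor that brings monocytes to tissue, with 1172 CPM in KO and 532 CPM in WT sorted cells against 81.1 and 8.80 CPM in neutrophils, and Fn1, fibronectin, with 1785 CPM in KO and 491 CPM in WT sorted cells against 27.0 and 5.13 CPM. Vcan, a matrix proteoglycan of classical monocytes, had 142 CPM in KO and 204 CPM in WT sorted cells, against 16.2 CPM in KO and 0 UMIs in WT neutrophils. The calcium-binding S100a4 had 1268 CPM in KO and 1634 CPM in WT sorted cells, against 5.41 and 27.1 CPM. Lower than in neutrophils were the pattern receptors Clec4e (log2 ratios of -3.44 in KO and -4.02 in WT), Clec4d (-4.96 and -3.52) and Cd14 (-2.72 and -3.30), and Thbs1 (-1.96 and -2.46). These lower genes are ones that both monocytes and neutrophils are known to express. Ly6c2, a surface marker of classical monocytes, had 462 CPM in KO and 145 CPM in WT sorted cells. Its log2 ratios over neutrophils, relative to the median gene, were 1.36 and -0.63. The WT sign comes from that centring, since the WT median gene stood at 1.42 by total UMIs. At 1000 UMIs Ly6c2 was detected in 22.5% of KO and 10.3% of WT M2-named cells, against 4.82% and 4.52% of neutrophils.

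Against Myeloid_DC the monocyte genes went 1 way: 13 of 25 were at least 2-fold higher, 0 were lower, and the median was 1.32 in KO and 1.64 in WT. The class markers Thbs1 (2.75 and 4.50), Chil3 (4.99 and 4.09) and Plac8 are among the 13. The count is thus in part fixed by genes that mark the class. Plac8 had log2 ratios of 1.90 and 2.70, Vcan of 4.13 and 3.95, Ly6c2 of 2.70 and 3.06, and haptoglobin, Hp, of 6.64 and 4.75 in KO and WT. Ccr2 (0.62 and 0.05), Fn1 (0.07 and -0.33) and S100a4 (-0.48 and -0.29) stood within 2-fold. Of 29 type I interferon response genes 24 were higher than in Myeloid_DC and 0 lower, as with the antiviral enzyme Rsad2, at 3.96 and 5.40, and the DNA sensor Ifi204, at 3.09 and 2.74. Dendritic genes were lower, 9 of 16, with 0 higher, among them the lectins Cd209a (-4.26 and -4.19) and Mgl2 (-1.67 and -3.75). Cell cycle genes were lower too, 15 of 19.

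The M2-named cells stood between the other classes in the summed level of hypoxia RNA. Hypoxia genes summed to 3602 CPM in KO and 6818 CPM in WT M2-named cells, to 6064 and 14156 CPM in neutrophils, and to 2580.1 and 3279 CPM in Myeloid_DC. Of 27 measured, 0 exceeded their neutrophil level by 2-fold or more in both libraries and 11 stood below it by that much, with medians of -0.64 in KO and -2.03 in WT. These ratios are relative to the median gene, which stood at 0.66 in KO and 1.42 in WT by total UMIs. By total UMIs the KO median was thus about level with neutrophils. Of 30 measured, 12 were higher and 0 lower than in Myeloid_DC, with medians of 0.75 and 1.16.

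Hilpda, which inhibits breakdown of stored fat, had 178 CPM in KO and 907 CPM in WT sorted cells among M2-named cells, 729.7 and 4516 CPM in KO and WT neutrophils and 99.3 and 156 CPM in Myeloid_DC. The glucose transporter Slc2a1 had 92.7 CPM in KO and 368 CPM in WT sorted cells, against 281 and 561 CPM in neutrophils and 43.2 and 107 CPM in Myeloid_DC. Vegfa, the vascular growth factor, had 124 CPM in KO and 198 CPM in WT sorted cells, against 216 and 257 CPM and 28.7 and 29.6 CPM. For each of these 3 genes and in both libraries the M2-named cells lay below neutrophils and above Myeloid_DC. Glycolysis genes did not separate the classes in the same way: by CPM they summed to 5495 and 14022 in KO and WT M2-named cells, 4205 and 12569 in neutrophils and 5665 and 9615 in Myeloid_DC. Their median ratio over neutrophils, relative to the median gene, was -0.51 and -1.35, opposite in sign to the sums by CPM, and 3 of 14 were at least 2-fold lower and 0 higher.

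**Figure D3:**
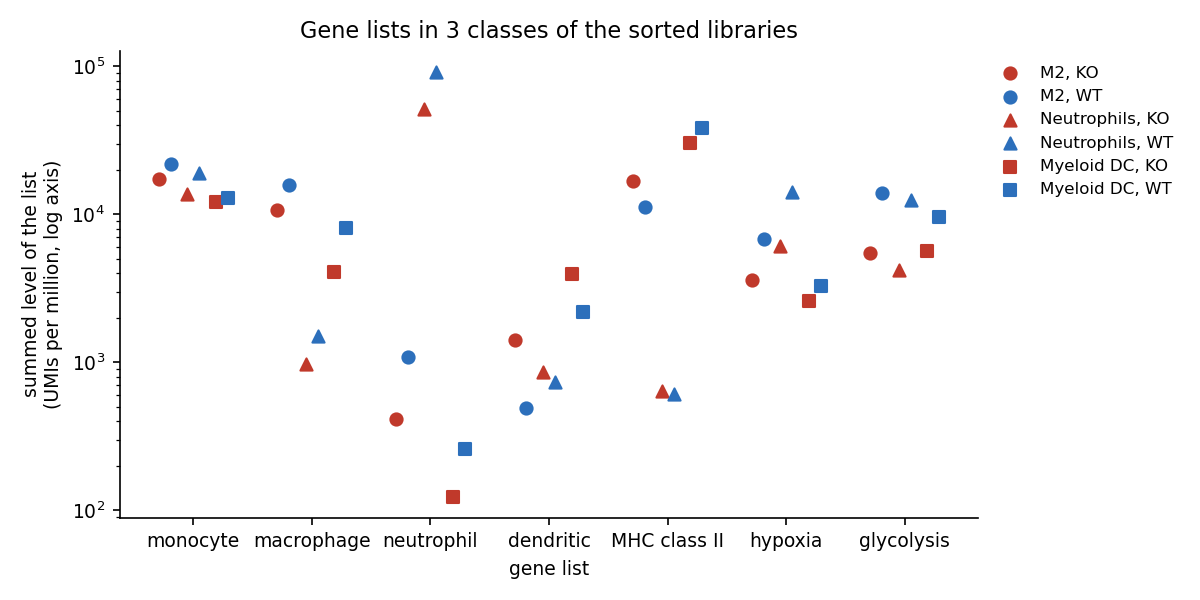
Points give the summed level of each gene list (CPM, log axis) in cells named M2 macrophages, neutrophils and Myeloid_DC of the KO sorted and WT sorted libraries. M2-named cells lie between the other classes for hypoxia genes, above them for macrophage genes, and between them for neutrophil and MHC class II genes.

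Neutrophil RNA was present at a low level in the M2-named cells. Its summed level was lower in KO in the sorted libraries and higher in KO in the tumor libraries, where few members were measured. The 18 neutrophil genes summed to 411 CPM in KO and 1082 CPM in WT sorted M2-named cells, against 51764 and 91594 CPM in neutrophils. The alarmins S100a8 and S100a9 had 9.16 CPM in KO and 233 CPM in WT and 2.69 CPM in KO and 274 CPM in WT sorted M2-named cells, against 14891 and 15772 CPM in KO and 31445 and 42395 CPM in WT neutrophils. Ly6g, the defining neutrophil marker, had 0 UMIs in KO and 0.119 CPM in WT sorted M2-named cells, and was at 0 UMIs in KO neutrophils too. Of 14 members measured in the sorted libraries 2, Csf3r and Mmp9, were at least 1.5-fold higher and 12 lower in KO, where 19.9% of all genes were higher and 21.6% lower by that rule. In tumor cells with leukocyte RNA the list summed to 294 CPM in KO and 236 CPM in WT. There 2 of 3 members were higher and 0 lower, where 27.6% of all genes were higher and 16.2% lower. These 3 were measured in the sorted libraries too, and 2 were higher in KO in both preparations, where 10% of all genes were. Most members that were lower in KO sorted cells were not measured in these tumor cells. Over all M2-named tumor cells the list summed to 179 and 76.6 CPM, with 3 of 5 higher and 1 lower, where 27.8% and 20.8% of all genes passed. Thbs1, Cxcl2, Clec4d and the hypoxia genes below are also abundant in neutrophils. The part of neutrophil RNA in their ratios was examined only by leaving out cells with over 0.5% of UMIs in the neutrophil list. Among named genes over all M2-named cells, this turned the sign of no KO over WT ratio of at least 2-fold with an interval off 0. Smaller ratios were not checked for sign. Percentile 90 of that list was 0.116% of UMIs in KO and 0.211% in WT sorted cells (leukocyte RNA, at least 2000 UMIs). The filter thus left most cells in, with the neutrophil RNA they hold.

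Promoters are printed here for 3 hypoxia genes that are lower in KO M2-named cells below and hold the HIF core, picked after their values were seen, with each match to ACGTG or GCGTG on either strand in capitals, 250 bases before to 50 after the start site (RefSeq, GRCm38.p6). The first is the downstream of 2 listed for Hilpda (plus strand), the second that of Ankrd37, a nuclear ankyrin protein induced in hypoxia (minus strand), and the third that of Slc2a1 (plus strand).
Hilpda chr6:29272376-29272675: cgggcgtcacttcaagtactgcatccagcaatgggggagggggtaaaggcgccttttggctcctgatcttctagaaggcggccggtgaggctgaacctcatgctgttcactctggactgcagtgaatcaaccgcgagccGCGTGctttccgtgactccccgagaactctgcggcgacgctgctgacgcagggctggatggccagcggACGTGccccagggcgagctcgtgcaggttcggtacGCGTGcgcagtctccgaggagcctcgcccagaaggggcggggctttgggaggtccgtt
Ankrd37 chr8:45999801-46000100: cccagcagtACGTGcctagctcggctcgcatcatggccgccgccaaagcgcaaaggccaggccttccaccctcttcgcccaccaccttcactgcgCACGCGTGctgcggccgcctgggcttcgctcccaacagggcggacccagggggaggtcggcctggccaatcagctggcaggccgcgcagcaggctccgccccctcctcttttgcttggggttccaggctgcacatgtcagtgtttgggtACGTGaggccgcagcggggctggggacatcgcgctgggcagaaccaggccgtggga
Slc2a1 chr4:119108495-119108794: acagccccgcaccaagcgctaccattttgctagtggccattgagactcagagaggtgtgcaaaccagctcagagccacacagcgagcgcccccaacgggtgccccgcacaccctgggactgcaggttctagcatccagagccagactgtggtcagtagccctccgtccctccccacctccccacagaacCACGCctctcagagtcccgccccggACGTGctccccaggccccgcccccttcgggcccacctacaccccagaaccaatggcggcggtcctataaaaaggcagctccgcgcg
Hilpda has 3 matches, from position -111 to -8 relative to the start site, Ankrd37 has 4 from -241 to -6, of which 2 overlap, and Slc2a1 has 2, at -61 and -36. None of the 3 holds the E-box CACGTG, which contains ACGTG. The letters occur in 30 of 38 promoters of the hypoxia list (78.9%, 27 symbols matched), in 21 of 27 of the glycolysis list (77.8%), in 10 of 27 of the alternative activation list (37.0%) and in 43.8% of all 32851 promoters of the table. A match is a description of letters, not a measured site. The lists were gathered by function, so these shares describe the lists and are no test of what binds.

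KO against WT within a preparation is given from here on as log2 KO over WT, relative to the median gene. By total UMIs the median gene itself had a log2 ratio of 0.36 in the sorted libraries, 0.35 in the tumor libraries and 0.25 in tumor cells with leukocyte RNA. With a minimum of 50 UMIs per preparation, 4650 genes could be compared. In both preparations 62 of them (1.33%) were higher in KO by 2-fold or more and 88 (1.89%) were lower by as much, and 40 (0.86%) were opposite. With cells holding leukocyte RNA only, 49 of 2009 genes (2.44%) were higher, 93 (4.63%) lower and 2 (0.0996%) opposite. For lists the smaller fold of 1.5 with at least 20 UMIs was used, which 19.9% of all genes passed upward and 21.6% downward in the sorted libraries. In tumor cells with leukocyte RNA 27.6% passed upward and 16.2% downward, and in both preparations 10% and 9.92%.

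The 4 class markers differed in direction between the genotypes. Chil3 was higher in KO, with a log2 ratio of 2.37 (2.29 to 2.45) in the sorted libraries. In tumor cells with leukocyte RNA it had 2033 CPM in KO and 78.8 CPM in WT, a ratio of 4.44 (3.66 to 5.35), and over all M2-named tumor cells 1146 CPM in KO and 11.7 CPM in WT, a ratio of 6.27 (5.49 to 7.18). Thbs1 was lower in KO in each set, with -1.82 (-1.88 to -1.76) in sorted cells, 361 CPM in KO and 1370.2 CPM in WT and a ratio of -2.18 (-2.46 to -1.89) in tumor cells with leukocyte RNA, and -1.46 (-1.70 to -1.23) over all M2-named tumor cells. Arg1 was lower in KO sorted cells, at -0.69 (-0.74 to -0.65), and in tumor cells with leukocyte RNA, at -0.62 (-0.86 to -0.37) (909 CPM in KO and 1170.1 CPM in WT). Over all M2-named tumor cells, most of whose WT UMIs came from cells without leukocyte RNA, Arg1 had the opposite sign, 1.21 (0.97 to 1.46). Plac8 was higher by 0.31 (0.26 to 0.36) in sorted cells and by 0.94 (0.59 to 1.29) in tumor cells with leukocyte RNA, where it had 1092 CPM in KO and 479 CPM in WT, and by 2.59 (2.27 to 2.93) over all M2-named tumor cells.

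Hypoxia genes were lower in KO M2-named cells in both preparations. Of 30 measured in the sorted libraries 21 were at least 1.5-fold lower and 1, Hif1a, higher, with a median of -1.15 (-1.58 to -0.63), where the median over all genes was 0.02. In tumor cells with leukocyte RNA 17 of 21 were lower and 2 higher, with a median of -1.63 (-1.85 to -1.07), where that of all genes was 0.12. Over all M2-named tumor cells, where 27.8% of all genes passed upward and 20.8% downward, 25 of 31 were lower and 1 higher, with a median of -1.36 (-1.51 to -1.01). Counted in both preparations over cells with leukocyte RNA, 16 of 21 were lower and 1, Pfkfb4, was higher. Pfkfb4, a regulator of glycolysis named for its ratio in the list, stood at 0.61 in sorted and 0.80 in tumor cells. Over all M2-named tumor cells it stood at 1.83. The 1 KO sorted cell without leukocyte RNA held 73026 UMIs, and without it and its WT counterpart 24 of 30 were lower in the sorted libraries and 1 higher, with a median of -1.27, where 19.5% of all genes were higher and 22% lower.

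Hilpda, whose promoter stands above, had 178 CPM in KO and 907 CPM in WT in the sorted libraries, a ratio of -2.72 (-2.83 to -2.60), and 117 CPM in KO and 515 CPM in WT in tumor cells with leukocyte RNA, a ratio of -2.40 (-2.89 to -1.91). Ankrd37 had 22.9 CPM in KO and 98.8 CPM in WT in the sorted libraries (log2 ratio -2.47, -2.81 to -2.15) and 20.7 CPM in KO and 97.0 CPM in WT in tumor cells with leukocyte RNA (log2 ratio -2.48, -3.73 to -1.28). Slc2a1 had ratios of -2.35 (-2.52 to -2.19) and -1.63 (-2.52 to -0.73) in those 2 sets. Each of these genes was lower in KO with its interval below 0. Ero1l had ratios of -2.08 and -1.63, the oxygen sensor gene Egln3 of -2.03 and -2.94, the mitophagy receptor gene Bnip3 of -1.64 and -1.85, the lipid droplet coat gene Plin2 of -1.97 and -1.59, and Vegfa of -1.04 and -1.81. Hif1a, which encodes the oxygen-regulated subunit of HIF-1, had 535 CPM in KO and 273 CPM in WT in the sorted libraries, a ratio of 0.60 (0.52 to 0.69), and 0.52 (-0.07 to 1.16) in tumor cells with leukocyte RNA, where the interval spans 0. Counting every M2-named tumor cell, the ratios were -1.66 for Hilpda, -1.67 for Ankrd37, -2.52 for Slc2a1, -1.90 for Ero1l, -1.01 for Egln3, -1.36 for Bnip3, -0.88 for Plin2, -1.5 for Vegfa and 0.53 for Hif1a, all with the same sign as in cells with leukocyte RNA.

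Glycolysis genes followed the same direction. Of 16 measured in the sorted libraries 12 were lower and 1 higher, with a median of -1.28 (-1.56 to -0.25), and in tumor cells with leukocyte RNA 13 of 14 were lower and 0 higher, with a median of -1.74 (-1.96 to -1.23). Over all M2-named tumor cells 11 of 14 were lower and 1 higher, with a median of -1.28 (-1.49 to -0.32). Gapdh had 1363 CPM in KO and 4821 CPM in WT in the sorted libraries (log2 ratio -2.19, -2.23 to -2.14) and 1884 CPM in KO and 4365 CPM in WT in tumor cells with leukocyte RNA (log2 ratio -1.47, -1.60 to -1.33). Aldoa, the aldolase of muscle and most cells, had ratios of -2.03 (-2.10 to -1.96) and -1.82 (-2.06 to -1.57), and Pkm, pyruvate kinase, of -1.90 (-1.96 to -1.83) and -1.95 (-2.17 to -1.73). Hk2, the inducible hexokinase, had -0.14 (-0.29 to 0.01) in the sorted libraries and 0.58 (-0.51 to 1.88) in tumor cells with leukocyte RNA, and both intervals span 0. Counting every M2-named tumor cell, Gapdh stood at -1.38, Aldoa at -1.62 and Pkm at -1.24, and Hk2 had the opposite sign, -0.91 (-1.34 to -0.49).

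Alternative activation genes were higher in KO M2-named cells. Of 24 measured in the sorted libraries 18 were at least 1.5-fold higher and 2 lower, with a median of 2.32 (1.01 to 2.80). In tumor cells with leukocyte RNA 12 of 20 were higher and 2 lower, with a median of 0.70 (0.50 to 2.64), and over all M2-named tumor cells 18 of 20 were higher and 0 lower, with a median of 2.47 (1.21 to 4.05). Genes with 0 UMIs in 1 genotype enter these medians at their bound.

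Ccl24, an attractant of eosinophils (chromosome 5, 135569937 to 135573049, minus strand), had 3376 CPM in KO and 106 CPM in WT in the sorted libraries and 2031 CPM in KO and 18.2 CPM in WT in tumor cells with leukocyte RNA, ratios of 4.63 (4.53 to 4.73) and 6.55 (5.0 to 8.83). Retnla (chromosome 16, 48842551 to 48844461, plus strand) had 2446 CPM in KO and 39.6 CPM in WT in the sorted libraries and 2019 CPM in KO and 297 CPM in WT in tumor cells with leukocyte RNA, ratios of 5.58 (5.43 to 5.75) and 2.51 (2.10 to 2.96). Other classes carried it too: KO and WT sorted Myeloid_DC had 8161 and 2137 CPM, above the M2-named cells of the same library, and 7.32% of KO and 0.823% of WT sorted B cells had a UMI, against 38.4% and 2.87% of M2-named cells. Slc7a2, an arginine transporter, had 227 CPM in KO and 11.4 CPM in WT in the sorted libraries and 303 CPM in KO and 6.06 CPM in WT in tumor cells with leukocyte RNA, ratios of 3.94 (3.64 to 4.26) and 5.39 (2.89 to 10.70). Ccl8, a chemokine of macrophages, had ratios of 2.53 (2.48 to 2.58) and 2.98 (2.40 to 3.63), the scavenger receptor Cd163 of 3.78 (3.34 to 4.24) and 2.64 (0.03 to 8.01), and the lectin Mgl2 of 2.67 (2.53 to 2.82) and 0.73 (0.17 to 1.34). Mrc1, the mannose receptor, had 1461 CPM in KO and 563 CPM in WT in the sorted libraries, with ratios of 1.01 (0.95 to 1.07) and 0.53 (0.22 to 0.85). Arg1 and the folate receptor gene Folr2 were the 2 members lower in KO in the sorted libraries, Folr2 at -1.13 (-1.41 to -0.85) there and at -1.77 (-2.83 to -0.70) in tumor cells with leukocyte RNA. Il4ra, the shared receptor chain for interleukins 4 and 13, stood at 0.10 (-0.02 to 0.21) and 0.35 (-0.37 to 1.15). Counting every M2-named tumor cell, the ratios were 8.38 for Ccl24, 4.34 for Retnla, 4.05 for Slc7a2, 4.84 for Ccl8, 4.48 for Cd163, 2.57 for Mgl2, 2.36 for Mrc1 and 2.11 for Il4ra, while Folr2 stood at 0.06 (-0.99 to 1.13), an interval that spans 0.

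Letters that STAT factors such as the interleukin 4 effector STAT6 bind, TTC and GAA 4 letters apart, occur in 7 of 27 promoters of the alternative activation list (25.9%, 19 symbols matched) and in 6.95% of all promoters of the table. Retnla has 1 match, 145 bases before its start site, in capitals here (plus strand), and Chil3 has none in its window.
Retnla chr16:48842359-48842658: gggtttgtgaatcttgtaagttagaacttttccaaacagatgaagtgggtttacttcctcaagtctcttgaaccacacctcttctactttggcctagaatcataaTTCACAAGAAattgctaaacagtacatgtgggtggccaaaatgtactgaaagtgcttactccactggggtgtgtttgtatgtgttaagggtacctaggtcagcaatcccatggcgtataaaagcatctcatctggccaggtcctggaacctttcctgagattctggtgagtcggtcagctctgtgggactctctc
Chil3 chr3:106167515-106167814: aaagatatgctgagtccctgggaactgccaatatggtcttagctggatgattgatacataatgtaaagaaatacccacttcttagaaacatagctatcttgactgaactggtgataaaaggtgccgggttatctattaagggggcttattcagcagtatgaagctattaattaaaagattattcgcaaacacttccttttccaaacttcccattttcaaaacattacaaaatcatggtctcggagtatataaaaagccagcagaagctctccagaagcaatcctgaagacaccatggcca
Promoters of Arg1, Thbs1, Ccl24 and Slc7a2 were not available, so they are neither counted nor shown. Here too a match is a description of letters, not a measured site. The list was gathered by function and chosen with earlier results of these data known, so its share of matches is no test either. A part of STAT6 in the ratios was not tested.

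**Figure D4:**
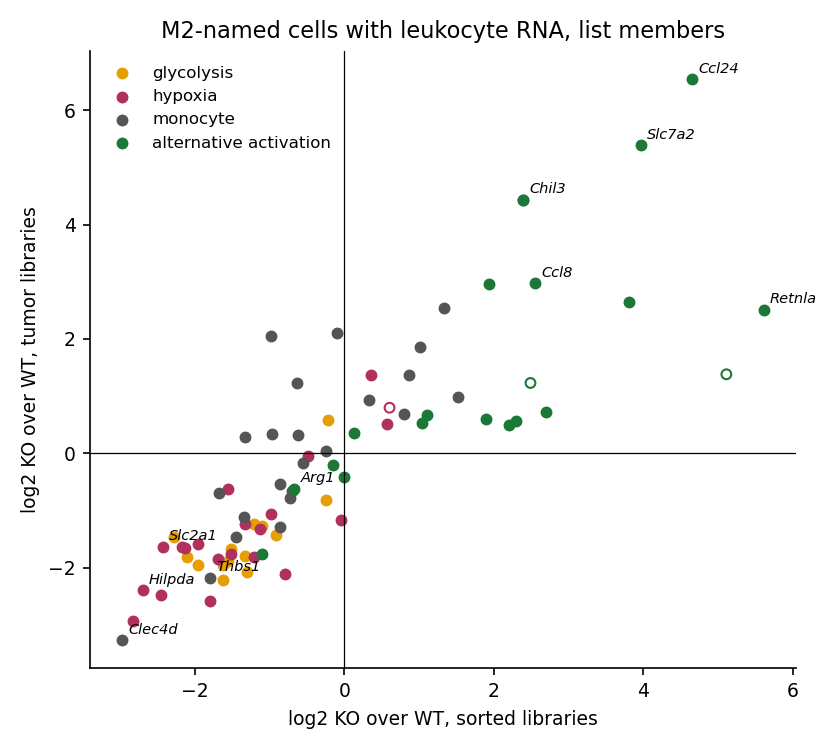
Each point is a member of the glycolysis, hypoxia, monocyte or alternative activation list with at least 20 UMIs in each preparation, placed by its log2 KO over WT in the sorted libraries and in the tumor libraries, M2-named cells with leukocyte RNA only. Open points had 0 UMIs in 1 library and stand at their bound; hypoxia and glycolysis genes lie mostly at the lower left and Ccl24, Slc7a2, Chil3 and Retnla at the upper right.

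The plot of KO over WT ratios in both preparations places the 4 lists side by side, with monocyte genes on either side of 0. Monocyte genes had a median of -0.73 (-1.01 to -0.13) in the sorted libraries, where 6 of 25 were higher and 15 lower in KO, and of 0.30 (-0.69 to 1.22) in tumor cells with leukocyte RNA, where 10 of 24 were higher and 8 lower. Over all M2-named tumor cells the median was 1.14 (0.42 to 2.59), with 17 of 25 higher and 3 lower, the opposite direction to the sorted libraries. Ly6c2 had 462 CPM in KO and 145 CPM in WT in the sorted libraries and 378 CPM in KO and 54.6 CPM in WT in tumor cells with leukocyte RNA, ratios of 1.31 (1.20 to 1.42) and 2.54 (1.59 to 3.69). Ccr2 had ratios of 0.77 (0.71 to 0.83) and 0.69 (0.35 to 1.06), and Fn1 of 1.5 (1.44 to 1.56) and 0.98 (0.69 to 1.29). Each of these 3 genes was higher in KO in both sets. Lower in both were the pattern receptors Clec4d, with 62.5 CPM in KO and 387 CPM in WT in the sorted libraries and ratios of -2.99 (-3.19 to -2.80) and -3.26 (-4.05 to -2.53), and Cd14, with ratios of -1.47 (-1.56 to -1.38) and -1.47 (-1.90 to -1.03). Lyz2, lysozyme M, had 3142 CPM in KO and 7914 CPM in WT in the sorted libraries (log2 ratio -1.70, -1.73 to -1.67) and 5488 CPM in KO and 7415 CPM in WT in tumor cells with leukocyte RNA (log2 ratio -0.69, -0.78 to -0.59), but 1.14 (1.04 to 1.24) over all M2-named tumor cells. By that count Ly6c2 stood at 4.37, Ccr2 at 2.52, Fn1 at 0.17 and Clec4d at -1.43, and Cd14 at 0.31 (-0.12 to 0.73), an interval that spans 0.

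Of macrophage maturation genes, 3 of 20 were higher and 10 lower in KO sorted cells, with a median of -0.70 (-1.53 to 0.12), and 2 of 20 were higher and 10 lower in tumor cells with leukocyte RNA, with a median of -0.56 (-1.20 to -0.04). Over all M2-named tumor cells 14 of 20 were higher and 2 lower, with a median of 1.19 (0.29 to 1.42), the opposite direction. C1qb had ratios of -1.53 (-1.59 to -1.48) and -0.72 (-0.88 to -0.55) in sorted cells and tumor cells with leukocyte RNA, Apoe of -2.30 (-2.34 to -2.26) and -1.43 (-1.54 to -1.31), and Cd68, a lysosomal protein, of -1.86 (-1.96 to -1.76) and -1.31 (-1.63 to -0.99). Genes of lipid-associated macrophages were lower in KO cells of the sorted libraries and in tumor cells with leukocyte RNA, 16 of 21 in the sorted libraries with 1 higher and a median of -1.39 (-1.97 to -0.62), and 13 of 20 in those tumor cells with 1 higher and a median of -1.09 (-1.48 to -0.38). Without the leukocyte limit 4 of 20 were lower in the tumor libraries and 6 higher, with a median of 0.22 (-0.28 to 0.80), where the median over all genes was 0.07. Spp1, osteopontin, had 399 CPM in KO and 4064 CPM in WT in the sorted libraries (log2 ratio -3.71, -3.79 to -3.64) and 1216 CPM in KO and 3092 CPM in WT in tumor cells with leukocyte RNA (log2 ratio -1.60, -1.77 to -1.43). Lgals3, galectin-3, had ratios of -2.62 (-2.67 to -2.58) and -1.47 (-1.61 to -1.32). Counting every M2-named tumor cell, C1qb stood at 1.12, Apoe at 0.29 and Cd68 at 0.59, opposite in sign to cells with leukocyte RNA, Spp1 at -0.06 (-0.22 to 0.10), and Lgals3 at -0.44.

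Most chemokine genes were lower in KO sorted M2-named cells. Of 25 measured 16 were lower and 4 higher, and the higher ones, Ccl8, Ccl17, Ccl22 and Ccl24, all belong to the alternative activation list as well, with a median of -0.74 (-1.53 to -0.45), and in tumor cells with leukocyte RNA 5 of 17 were lower and 7 higher, with a median of -0.27 (-0.82 to 1.47). Counted over every M2-named tumor cell, 2 of 19 were lower and 13 higher, with a median of 1.36 (0.04 to 3.48). Cxcl2, an attractant of neutrophils, had 1039.5 CPM in KO and 6166 CPM in WT in the sorted libraries and 708 CPM in KO and 2055 CPM in WT in tumor cells with leukocyte RNA, ratios of -2.93 (-2.98 to -2.89) and -1.79 (-2.01 to -1.58). Cxcl3, of the same family, had 83.8 CPM in KO and 2469.6 CPM in WT and 102 CPM in KO and 261 CPM in WT in those sets, ratios of -5.25 (-5.41 to -5.08) and -1.61 (-2.22 to -1.0). Neutrophils of the sorted libraries had 14345 CPM of Cxcl2 in KO and 57428 CPM in WT. Ccl2, the ligand of Ccr2, had 875 CPM in KO and 1476 CPM in WT in the sorted libraries (log2 ratio -1.12, -1.17 to -1.06) and 799.9 CPM in KO and 970.1 CPM in WT in tumor cells with leukocyte RNA (log2 ratio -0.53, -0.80 to -0.26). The receptor Cxcr4 was higher in KO, with 270.4 CPM in KO and 93.4 CPM in WT in the sorted libraries and ratios of 1.17 (1.03 to 1.31) and 1.74 (0.55 to 3.23). Without the leukocyte limit the tumor ratios were 0.04 (-0.18 to 0.25) for Cxcl2 and 0.30 (-0.30 to 0.90) for Cxcl3, intervals that span 0, -1.37 for Ccl2 and 3.59 for Cxcr4.

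Genes were also ranked by the smaller ratio of both preparations, over all M2-named cells. Cells without leukocyte RNA held 85.1% of the UMIs of the WT tumor set in that ranking. Among the 10 genes highest in KO, those outside the lists above were the ribonucleases Rnase2a and Ear2, Gatm, an enzyme of creatine synthesis, and Naaa, a lysosomal amidase. Rnase2a had 174 CPM in KO and 1.07 CPM in WT in the sorted libraries and 119 CPM in KO and 0 UMIs in WT tumor cells with leukocyte RNA, where the log2 ratio was at least 2.45 with 3 UMIs as the floor. Ear2 had 432 CPM in KO and 83.8 CPM in WT in the sorted libraries, a ratio of 2.0 (1.87 to 2.13), and 0.83 (0.11 to 1.63) in tumor cells with leukocyte RNA. Rnase2a and Ear2 are close copies, so the split of reads between them is uncertain, and the same holds for Chil3 and Chil4. Gatm had ratios of 2.51 (2.36 to 2.65) and 2.74 (1.59 to 4.21), and Naaa of 2.05 (1.92 to 2.18) and 1.93 (1.08 to 2.91). In the other direction of the ranking over all M2-named cells stood the hemoglobin genes Hbb-bs and Hba-a1, with Saa3, the membrane glycoprotein gene Pdpn, Slc2a1, Vim, the interferon-induced Ifitm1, the protease inhibitor gene Slpi, Mt1 and Ero1l. For Pdpn, Ifitm1, Slpi and the hemoglobin genes no ratio in tumor cells with leukocyte RNA is given here. Vim, vimentin, had 1190.1 CPM in KO and 3410.2 CPM in WT in the sorted libraries, with ratios of -1.88 (-1.93 to -1.84) and -1.19 (-1.38 to -1.0), and Mt1, a metallothionein, had ratios of -2.05 (-2.10 to -1.99) and -1.68 (-1.93 to -1.42). Saa3, an acute-phase gene, had -4.37 (-4.87 to -3.91) in the sorted libraries and -4.12 (-4.62 to -3.66) over all M2-named tumor cells, but 0.06 (-3.28 to 5.68) in those with leukocyte RNA. By the count over all of them Ear2 stood at 2.66, Gatm at 4.57, Naaa at 3.26, Vim at -2.26 and Mt1 at -1.80.

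RNA of other cell types differed by genotype in the sorted libraries. Erythrocyte genes summed to 0.539 CPM in KO, with 2 of 8 members detected, and 1347 CPM in WT sorted M2-named cells, with 8 of 8. Platelet genes summed to 442 and 3082 CPM, of which Pf4, also a gene of macrophages, had 416 CPM in KO and 2733 CPM in WT. Lymphocyte genes summed to 666 and 795 CPM and eosinophil, mast cell and basophil genes to 3.50 and 2.86 CPM. Ferritin RNA was lower in KO: Fth1 had 4762 CPM in KO and 19146 CPM in WT in the sorted libraries (log2 ratio -2.37, -2.39 to -2.35) and 8369 CPM in KO and 17739.9 CPM in WT in tumor cells with leukocyte RNA (log2 ratio -1.34, -1.40 to -1.27), and Hmox1, the heme-degrading enzyme, had ratios of -2.57 (-2.65 to -2.49) and -3.30 (-3.64 to -2.97). Without the leukocyte limit Fth1 stood at -0.46 and Hmox1 at -1.05 in the tumor libraries. The part of this RNA in the results was examined by leaving out cells with over 1% of UMIs in the lymphocyte, platelet, erythrocyte and fibroblast lists. Among named genes over all M2-named cells, this turned the sign of no KO over WT ratio of at least 2-fold with an interval off 0. Smaller ratios were not checked for sign here either. Cells at or below that limit stayed in, with the RNA of other cell types that they hold. Pf4, a macrophage gene too, counted toward the limit.

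Genes of arginine use divided. Of 15 measured in the sorted libraries 3 were higher in KO, the transporters Slc7a1 and Slc7a2 and Gatm, and 6 lower, with a median of -0.47, and in tumor cells with leukocyte RNA 5 of 11 were higher and 2 lower, and over all M2-named tumor cells 6 of 13 were higher and 2 lower. Nos2, the inducible nitric oxide synthase that competes for arginine, had 9.70 CPM in KO and 69 CPM in WT sorted cells, a ratio of -3.20 (-3.72 to -2.71), and Arg2, the mitochondrial arginase, had 9.16 CPM in KO and 48.1 CPM in WT sorted cells, a ratio of -2.76 (-3.31 to -2.25). Complement genes divided as well, with 5 of 15 higher and 5 lower in the sorted libraries and 4 of 12 higher and 6 lower in tumor cells with leukocyte RNA. Without the leukocyte limit 10 of 13 complement genes were higher in KO tumor cells and 0 lower, with a median of 1.23 (0.55 to 3.72). C3, the central component, had 260.2 CPM in KO and 54.4 CPM in WT sorted cells, with ratios of 1.89 (1.73 to 2.06) in sorted cells and 3.95 (2.07 to 7.02) in tumor cells with leukocyte RNA, opposite to C1qb, and of 4.34 over all M2-named tumor cells.

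Interferon gamma targets were higher in KO sorted M2-named cells, 12 of 20 with 4 lower and a median of 0.70 (0.07 to 0.89), and in tumor cells with leukocyte RNA 8 of 15 were higher and 0 lower, with a median of 1.01 (0.15 to 1.47). Without the leukocyte limit all 16 measured were higher in KO tumor cells, with a median of 2.27 (1.73 to 3.19). Gbp2, a GTPase of cell-autonomous defense, had 134 CPM in KO and 62.4 CPM in WT in the sorted libraries (log2 ratio 0.74, 0.56 to 0.92) and 2.62 (1.02 to 4.94) in tumor cells with leukocyte RNA. Ciita, which turns on MHC class II genes, had ratios of 1.28 (1.05 to 1.52) and 1.16 (0.03 to 2.53). In all M2-named tumor cells Gbp2 stood at 3.76 and Ciita at 2.99. Type I interferon genes had medians of -0.10 (-0.63 to 0.25) in sorted cells and 0.18 (-0.50 to 0.68) in tumor cells with leukocyte RNA, where those of all genes were 0.02 and 0.12. Without the leukocyte limit 21 of 27 were higher in KO tumor cells and 1 lower, with a median of 1.41 (1.12 to 2.04). Dendritic genes were higher in KO sorted cells, 12 of 19 with 2 lower and a median of 1.03 (0.06 to 2.18), and 4 of 6 with 0 lower in tumor cells with leukocyte RNA, and 6 of 8 with 1 lower over all M2-named tumor cells. Mgl2 and Clec10a, which count in both this list and that of alternative activation, are among them, with Clec10a at 2.18 (1.98 to 2.38) and 0.50 (-0.68 to 1.91), and at 2.33 over all M2-named tumor cells. Of the listed inflammatory cytokine genes 9 of 17 were lower and 0 higher in KO sorted cells, with a median of -0.61 (-1.04 to -0.33). In tumor cells with leukocyte RNA 3 of 8 were lower and 0 higher, with a median of -0.31 (-1.81 to 0.54), but over all M2-named tumor cells 3 of 12 were lower and 9 higher, with a median of 0.84 (-0.85 to 2.15). Il1b had 721 CPM in KO and 855 CPM in WT in the sorted libraries (log2 ratio -0.61, -0.68 to -0.55), and 0.50 (0.14 to 0.88) in tumor cells with leukocyte RNA, the opposite sign, and 2.34 over all M2-named tumor cells.

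Within a library the M2-named cells covered a wide range. Over the 375 KO and 616 WT sorted cells with leukocyte RNA and at least 2000 UMIs, hypoxia genes took 0.261% of UMIs in the median KO cell, with 0.10% and 0.820% at percentiles 10 and 90. In WT they took 0.475%, with 0.111% and 1.92%. The 2 libraries were close at the low end and apart at the high end. Glycolysis genes took 0.421% in the median KO and 1.30% in the median WT cell. Monocyte genes took 1.61% and 2.11%, with percentile 10 at 0.582% and 0.906% and percentile 90 at 3.99% and 4.53%. Alternative activation genes took 0.648% and 0.264% at the median and 4.47% and 1.08% at percentile 90. In the tumor libraries, over 106 KO and 20 WT cells, hypoxia genes took 0.162% and 0.476% of UMIs at the median.

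**Figure D5:**
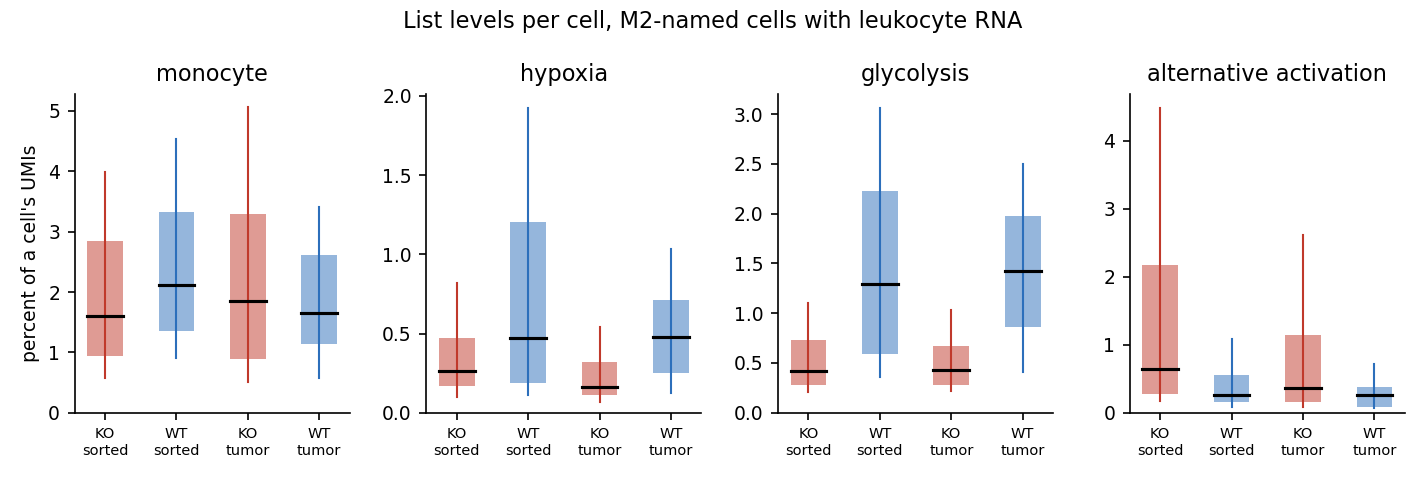
For each library, the line runs from percentile 10 to 90, the box from percentile 25 to 75 and the black bar marks the median of the percent of a cell's UMIs in 4 gene lists, over M2-named cells with leukocyte RNA and at least 2000 UMIs (375 KO sorted, 616 WT sorted, 106 KO tumor and 20 WT tumor cells). Hypoxia and glycolysis medians are lower in KO than in WT in both preparations, and alternative activation medians are higher.

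Monocyte and macrophage genes tended to sit in different cells. Across the cells of a library, the Spearman coefficient between the percent of UMIs in the 2 lists, shared genes left out, was -0.41 in KO sorted, -0.37 in WT sorted, -0.59 in KO tumor and -0.39 in WT tumor cells (375, 616, 106 and 20 cells). Between hypoxia and glycolysis it was 0.75, 0.90, 0.65 and 0.89, and between hypoxia and monocyte genes -0.02, -0.16, -0.14 and 0.21, the last over 20 cells and of the opposite sign. Between hypoxia and alternative activation it was 0.45, 0.52, 0.45 and 0.35, so within each of these libraries cells richer in hypoxia RNA tended to be richer in alternative activation RNA, while between the genotypes the 2 lists differed in opposite directions. Cells of a library share its depth and capture, and percents of 1 total are not independent, so these coefficients are descriptions.

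With sorted cells thinned to 2000 UMIs, at least 1 of Arg1, Thbs1, Chil3 and Plac8 was found in 85.1% of KO and 80.5% of WT cells, and all 4 in 2.67% and 1.30%. The pairings of markers differed. In KO cells Thbs1 was found in 28.6% of cells with Arg1 and in 29.0% of those without it, and in WT cells in 84.1% and 34.9%. Ccl24 was found in 76.6% of KO cells with Arg1 and 25.3% of those without it, and in 12.4% and 2.82% of WT cells. Ccl24 was thus more frequent beside Arg1 in both genotypes, and Thbs1 was so in WT sorted cells, while in KO its shares were close. Plac8 was rarer beside Arg1 in both, found in 32.5% against 64.7% of KO and 36.7% against 54.6% of WT cells.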

How the data were processed

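Each of the 4 libraries held cells of 1 group. Per the submitters' processing notes, reads were processed with Cell Ranger 6.0.1 and Seurat 4.0.5 on mm10. The authors deposited natural log values, ln(1 + 10000 × UMIs / total UMIs of the cell), and the cell names. The deposited values were turned back into UMI counts, and all 60957742 nonzero values of 20376 cells and 19715 genes came out whole within 0.01 UMI. Doublets were not removed, nor were the 307 cells with a shared barcode, and 33 barcodes occur in all 4 libraries. Counts were summed per class and library and ratios centred on the median gene with at least 50 UMIs, with 0 counts set to a floor of 3 UMIs. With 1 library per group no test was made. Scripts used Python 3.11.15, numpy 2.4.6, pandas 2.3.3, scipy 1.17.1 and matplotlib 3.10.9 and were tested on simulated data.

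Members and gene lists were chosen with earlier results of these data known. Genes named were the 4 markers, Cd200r1 and Cd200, the 4 most abundant members of a list and the 2 with the largest ratio in each direction, the 10 genes highest and the 10 lowest in KO over both preparations, the 10 highest over neutrophils and over Myeloid_DC, and every measured chemokine. Other genes were named after their values were seen. Some genes that this rule names are not reported here. Alternatives covered scaling, weight of cells, depth, filters on cells and genes, RNA of other lineages, neutrophil and leukocyte RNA, and shared barcodes.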

Additional observations from a re-analysis of the deposited data

Results flagged for a closer look

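Several results had opposite signs in the sorted and the tumor libraries when all M2-named cells were counted, and the difference between preparations was not tested in any of them. On the log2 scale of KO over WT, Lyz2 stood at -1.70 among sorted and at 1.14 among tumor cells, C1qb at -1.53 and 1.12, and the haptoglobin gene Hp at -1.01 and 3.57. The monocyte list had medians of -0.73 and 1.14 and the chemokine list of -0.74 and 1.36. In tumor cells with leukocyte RNA, Lyz2 stood at -0.69, C1qb at -0.72, Hp at 2.06 and the lists at 0.30 and -0.27. Shares of M2-named cells among all cells were 2.47 percentage points lower in KO than in WT in the sorted libraries, a difference of -2.47, and 1.21 points higher in the tumor libraries.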

How the results depend on the processing

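No paired analysis was possible because cells carry only the name of their group, and for the same reason no sample could be left out. The number of genes at least 2-fold higher in KO in both preparations was 62, against 228 by total UMIs without centring, 28 with cells thinned to 2000 UMIs, 121 with at least 20 and 32 with at least 100 UMIs per gene. The number lower was 88, against 36 by total UMIs and 174 with equal weight per cell. The sorted chemokine median was -0.38 by total UMIs. In the tumor libraries, cells with leukocyte RNA alone gave list medians of 0.30 for monocyte, -0.56 for macrophage, -1.63 for hypoxia, -1.74 for glycolysis, 0.70 for alternative activation and -0.27 for chemokine genes, of which the macrophage and chemokine medians turned sign. The tumor macrophage median was 1.54 by total UMIs and 1.80 in cells with at least 1000 UMIs and under 10% mitochondrial UMIs. The tumor hypoxia median was -1.01 by total UMIs, -1.70 with equal weight and -1.98 with thinned cells, and the tumor glycolysis median -1.66 with thinned cells. The share difference was 10.6 points in the sorted libraries with myeloid classes as the denominator, the opposite sign, and in the tumor libraries 1.89 with the cell filter and 2.01 with leukocyte RNA.

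For the classes, shares of cells with a UMI gave smaller WT ratios than levels: hypoxia over neutrophils -1.17 at 1000 and -1.16 at 2000 UMIs, glycolysis -0.66 and -0.80, macrophage 1.76 at 2000, and over Myeloid_DC neutrophil 1.15 and 1.86 and glycolysis 0.32 and 0.31. In KO, hypoxia over neutrophils was -0.35 at 2000 UMIs. Leaving out M2-named cells rich in neutrophil RNA gave neutrophil medians of -8.74 over neutrophils and 2.39 over Myeloid_DC in WT. Of the named genes at least 2-fold different over all M2-named tumor cells, these turned sign in those with leukocyte RNA: Arg1 -0.62, Lyz2 -0.69, C1qb -0.72, C1qa -0.64, Rsad2 -0.71 and Saa3 0.059. Rsad2 was also -0.45 with equal weight, Ccl22 -0.19 with thinned cells and Slpi 2.85 with the cell filter. The causes of the other differences were not tested. Only 25 WT tumor cells had leukocyte RNA, which limits ratios on that set, and with 1 library per group no value shows the spread between animals.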
